A study of Mus musculus with 20 samples.

Results

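The kidneys compared here came from mice that had been preconditioned by a short ischemia and then injured by a long one (IPC+IRI), and from mice that had undergone neither surgery nor treatment (Control). They were taken by their sample labels, as 4 IPC+IRI kidneys and 4 Control kidneys of the 20 samples in the series, with 1 array for each kidney. All were male C57BL/6 mice of 8 to 12 weeks. In the IPC+IRI group both renal pedicles were clamped for 15 min, and 7 days later they were clamped for 45 min and reperfused for 6 h. The IRI group, given beside these where a difference from it was tested, received only the 45 min of ischemia and 6 h of reperfusion. The Hemin group received 25 mg/kg of Hemin, an inducer of heme oxygenase, and had no ischemia. No group was preconditioned without the later injury and none is labelled as sham-operated, so what the first clamping did, what the second did and what the operation itself did cannot be told apart in IPC+IRI vs Control.

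Ischemia stops oxidative phosphorylation in the kidney within a short time, and the proximal tubule, which reabsorbs most of the filtered solutes and depends on mitochondrial ATP, is the segment known to be hit hardest. Reperfusion brings oxidants, opens stress signaling through MAP kinases, ATF4, heat shock factor 1 and NRF2, and calls in neutrophils and then monocytes through chemokines made by tubule and endothelial cells. Surviving tubule cells lose part of their transport program and take on injury markers such as Havcr1 and Lcn2. A brief earlier ischemia is known to make the kidney more resistant to a later one.

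Expression is given as log2 of the array signal after division by the 75th percentile of its array, so that 0 lies at this percentile. Values of 4 arrays are listed in the order of replicates 1 to 4, means are ± SD over n = 4, and fold changes are log2 values with the standard error (SE) of the limma fit. A change that reached an adjusted p under 0.05 is said to have passed the threshold, and "called" means that it was also at least 2-fold. A probe that the scanner software did not find well above background on any array of a group has only a bound, given as "at least". The adjusted p beside a bound is that of the fit to the measured signals, those near background included, and is not a test of the bound. In whole kidney tissue, fewer cells of a type and less RNA per cell cannot be told apart, and nothing in the labels says how the kidneys of a group were spread over litters or cages.

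In IPC+IRI vs Control, 18342 genes could be tested, of which 1461 (7.97%) were called higher and 2584 (14.1%) lower. All 4 IPC+IRI arrays lay above all 4 Control arrays in 17.7% of the genes and below them in 27.4%. Each group was hybridised on a slide of its own. The IPC+IRI slide was scanned on another day than the Control and IRI slides, so that slide, scan day and group cannot be told apart in IPC+IRI vs Control. The same holds for every difference IPC+IRI minus IRI. The Hemin kidneys, which had no ischemia, were scanned on the same day as the IPC+IRI kidneys, and in Hemin vs Control 407 of 18572 genes (2.19%) were called higher and 1111 (5.98%) lower. Both comparisons share the 4 Control arrays, so that a value of Hemin vs Control given beside one of IPC+IRI vs Control is not independent of it. A dim gene was tested where the arrays of 1 group were bright enough, so that a list with many dim members holds genes that were tested through the group in which they were high, and its count is a description. With background correction by normexp, a method that shrinks the differences of dim signals, 573 genes were called higher and 325 lower, so that 63.8% of the calls were rises against 36.1% without it. In 47 of 104 named genes that were called it moved the value by over 1.5-fold, in all of them toward 0, and 85 of the 104 were still called. The bounds given as "at least" (for Il6, Cxcl2, Retnlg, Cd79a, Npr1 and Ptgs2) hold without normexp, and with it the log2 fold change of each was smaller than its bound. With no scaling between arrays 3267 were higher and 1187 lower, or 73.3% rises. Control replicate 2 differed from the remaining Control arrays in ribosomal RNA and several genes described below, and without it 1717 genes were called higher and 2674 lower.

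The kidney was recognisable in every array. Umod, the most abundant urinary protein of the thick ascending limb, measured 7.66, 7.74, 7.6 and 7.33 in the Control arrays and 7.98, 7.49, 7.54 and 7.66 in the IPC+IRI arrays. Its groups overlapped, and the log2 fold change of 0.085 (SE 0.16, adjusted p = 0.67) was not past the threshold. The proximal tubule phosphate carrier Slc34a1 and the water channel Aqp2 of the collecting duct were well above background on all 8 arrays. Of the markers of other tissues, 3 adrenal, 5 pancreas, 3 fat, 3 blood, 3 muscle and 4 liver genes could be tested. Among these 1 adrenal gene was called higher, and 2 pancreas genes and 1 liver gene lower, against 7.97% and 14.1% of all genes. The summed level of a whole list in the IPC+IRI arrays ranged from 0.62 to 1.02 for adrenal markers, against 0.98 to 1.15 in the Control arrays, and from 2.39 to 4.64 for adipocyte markers, against 2.02 to 5.89. It was 2.74 to 4.95 against 4.19 to 6.34 for erythroid markers, -0.37 to -0.12 against 0.22 to 0.86 for pancreas, -2.51 to -1.62 against -1.81 to -1.61 for muscle and -0.33 to 0.78 against 0.79 to 1.31 for liver. Of 4 sex-linked genes tested, 2 passed the threshold in each direction.

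Promoters of 4 genes that rose are shown because they carry, in the bases just before the start of transcription, the short motif of a factor that acts on genes of their list. Each is the 250 bases before the start from RefSeq on GRCm38.p6, 5′ to 3′ on the gene's strand, with the matches in capitals. The motifs were searched on both strands. They were GAANNTTC for the heat shock element, TGATGNAA for ATF4, TGACNNNGC for the antioxidant response element and TGANTCA for AP-1. For NF-kappaB the pattern was looser than the consensus, with only the G bases at one end and the C bases at the other fixed. A match to this pattern, such as those marked in Nfkbia, need not fit the consensus. The 9-base match in Mt2 overlaps an AP-1 match. Hspa1a (an inducible heat shock protein, chr17:34972157-34972406, minus strand), Nfkbia (the NF-kappaB inhibitor, chr12:55492648-55492897, minus strand), Chac1 (a glutathione-degrading enzyme, chr2:119350992-119351241, plus strand) and Mt2 (metallothionein 2, chr8:94172368-94172617, plus strand) are given in this order.
Hspa1a: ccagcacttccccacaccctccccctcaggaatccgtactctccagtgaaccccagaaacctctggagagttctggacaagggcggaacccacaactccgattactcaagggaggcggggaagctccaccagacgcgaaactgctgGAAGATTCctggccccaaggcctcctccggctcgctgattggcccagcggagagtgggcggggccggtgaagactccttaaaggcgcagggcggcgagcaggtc
Nfkbia: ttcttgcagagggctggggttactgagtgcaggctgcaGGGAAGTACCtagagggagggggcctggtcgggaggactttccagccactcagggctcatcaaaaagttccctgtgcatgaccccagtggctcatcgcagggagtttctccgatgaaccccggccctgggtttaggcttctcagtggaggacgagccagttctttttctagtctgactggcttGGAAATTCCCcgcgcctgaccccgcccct
Chac1: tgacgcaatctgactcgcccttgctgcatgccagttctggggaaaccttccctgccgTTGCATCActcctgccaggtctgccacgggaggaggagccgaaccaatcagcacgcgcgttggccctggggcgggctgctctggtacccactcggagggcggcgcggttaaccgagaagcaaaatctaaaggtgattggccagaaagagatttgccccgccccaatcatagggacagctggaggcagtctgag
Mt2: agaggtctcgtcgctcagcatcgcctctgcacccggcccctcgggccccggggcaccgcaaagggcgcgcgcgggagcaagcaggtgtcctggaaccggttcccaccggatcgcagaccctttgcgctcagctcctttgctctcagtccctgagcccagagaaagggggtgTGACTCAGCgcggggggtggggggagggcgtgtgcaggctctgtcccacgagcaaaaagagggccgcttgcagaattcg
The match began 104 bases before the start in Hspa1a, 193 in Chac1 and 79 in Mt2, and at 212 and 29 in Nfkbia. Over the called members with a promoter in the table, the heat shock element was found in 3 of 6 heat shock genes (50%), against 7.73% of the 27025 genes with a promoter. The ATF4 motif was found in 3 of 11 genes of the integrated stress response (27.3%, against 3.91%) and the antioxidant motif in 2 of 4 genes of the NRF2 list (50%, against 11.5%). The NF-kappaB motif, a loose pattern held by 48.7% of all genes, was found in 10 of 10 NF-kappaB genes, and the AP-1 motif in 2 of 18 immediate early genes (11.1%, against 7.82%). These are matches of letters in short windows and were not tested as binding sites.

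Tubular injury genes rose in the IPC+IRI kidneys. Of 25 tested, 20 were called higher and none lower, against 7.97% and 14.1% of all genes. Their median log2 fold change was 1.77, against -0.086 over all genes. A rise of at least 8-fold was seen in 5 of them and in 0.54% of all genes tested. Krt20, a keratin of injured tubule cells, measured 3.07, 5.17, 5.12 and 5.61 in the IPC+IRI arrays and -5.87, -1.32, -5.31 and -6.17 in the Control arrays, where it was well above background on 1 array. Every IPC+IRI array lay far above every Control array, with a log2 fold change of 9.41 (SE 0.81, adjusted p = 1.0e-07) that was 10.53 without Control replicate 2, the highest of the Control arrays, and 6.21 with normexp. Sox9, a transcription factor of regenerating tubule cells, rose by 4.64 (SE 0.34, adjusted p = 2.1e-08), from -4.8 ± 0.31 to -0.16 ± 0.76, and of its 3 probes 1 had a difference of 0.12. These probes were well above background on 1, 0 and 2 Control arrays, so that the size rests on Control values near background, and with normexp it was 1.91.

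Havcr1, the gene of kidney injury molecule 1, measured 0.66, 0.51, 0.5 and 0.53 in the Control arrays and 0.97, 0.99, 2.81 and 1.62 in the IPC+IRI arrays. Replicate 3 was the highest and replicates 1 and 2 lay close above the Control arrays, with no overlap and a log2 fold change of 1.05 (SE 0.33, adjusted p = 0.011), which was not past the threshold in the deposited log2 matrix. Without replicate 3 it was 0.64 (adjusted p = 0.042). Its 2 probes differed: the dimmer rose by 3.45 and the brighter by 0.56, and with the brightest probe alone the adjusted p was 0.061. Spp1, osteopontin, rose by 0.91 (SE 0.15, adjusted p = 8.4e-05). Clu, clusterin, had overlapping groups at 5.18 ± 0.1 in Control and 5.26 ± 0.39 in IPC+IRI, with a log2 fold change of 0.081 and an adjusted p of 0.71.

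**Figure D1:**
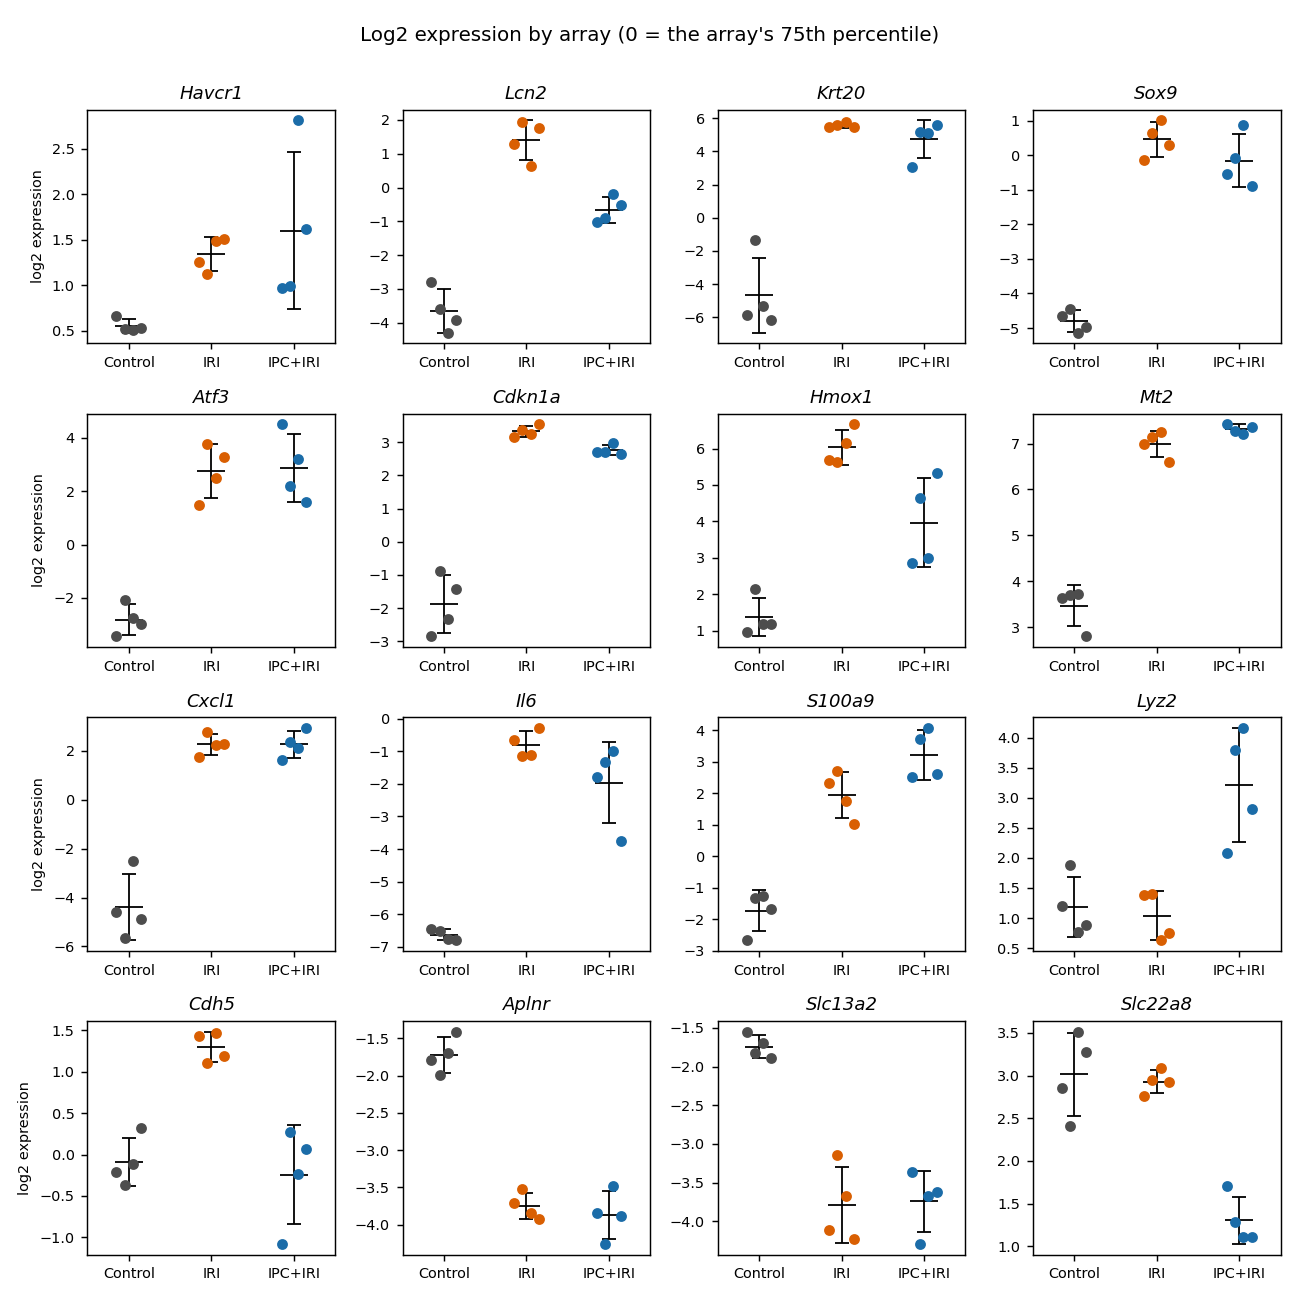
Log2 expression (vertical axes, 0 being the 75th percentile of an array) of 16 genes in Control, IRI and IPC+IRI kidneys. Points are arrays in the order of replicates 1 to 4, the long tick is the mean and the bars are the SD over n = 4. Krt20, Sox9, Atf3 and Cdkn1a lie far above Control in both injured groups, Lcn2 and Hmox1 lie lower in IPC+IRI than in IRI, Lyz2 lies higher, and Slc22a8 is low in the IPC+IRI arrays alone among these 3 groups.

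Lcn2, which codes for the iron-binding injury protein NGAL, measured -2.79, -3.6, -4.29 and -3.93 in the Control arrays and -1.03, -0.9, -0.2 and -0.5 in the IPC+IRI arrays. The groups did not overlap, and the rise of 3.0 (SE 0.43, adjusted p = 2.0e-05) corresponded to 7.97-fold, and was 1.16 with normexp. In the IRI arrays it measured 1.29, 1.94, 0.63 and 1.77, so that every IPC+IRI array lay between every Control array and every IRI array. The difference IPC+IRI minus IRI was -2.06 (SE 0.43, adjusted p = 0.001). Over the whole comparison of IPC+IRI with IRI, 1269 of 17663 genes (7.18%) were called higher and 777 (4.4%) lower, and of the 25 tubular injury genes 2 were called higher and 4 lower.

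Immediate early transcription factors, made within minutes of a stress without new protein synthesis, were called higher in 24 of 27 tested genes, against 7.97% of all genes, and none was called lower. Their median log2 fold change was 2.29. Atf3, a stress-induced repressor, measured -3.44, -2.07, -2.76 and -2.98 in the Control arrays and 4.51, 2.19, 3.21 and 1.59 in the IPC+IRI arrays, with replicate 1 highest and replicate 4 lowest of the latter. No arrays overlapped, and the log2 fold change of 5.69 (SE 0.58, adjusted p = 6.1e-07) was the largest among genes well above background on all 8 arrays. Maff, a small MAF protein, went from -2.23 ± 0.35 to 3.43 ± 0.36. The AP-1 subunits Fosl1, Fos and Jun rose by 5.12 ± 0.27, 2.85 ± 0.67 and 2.03 ± 0.25 (log2 fold change ± SE), with Fosl1 well above background on 1 Control array and at 2.54 with normexp. Fos was at 2.26 without Control replicate 2 and at 1.80 with normexp. Egr1, a zinc finger factor, rose by 2.58 (SE 0.55, adjusted p = 6.8e-04).

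Myc, a driver of growth and ribosome production, measured -0.26, -1.86, -1.28 and -1.29 in the Control arrays and 0.41, 0.83, 0.4 and 0.66 in the IPC+IRI arrays. The arrays of both groups stayed apart, and the rise was 1.75 (SE 0.26, adjusted p = 2.3e-05). In the IRI arrays Myc measured 2.62, 3.1, 2.98 and 2.79, above every IPC+IRI array, with a difference IPC+IRI minus IRI of -2.3 (SE 0.26, adjusted p = 7.2e-06). Fosl1 was likewise lower than in IRI, with a difference of -1.43 (SE 0.27, adjusted p = 4.0e-04), while the differences of Atf3 and Maff from IRI were 0.12 ± 0.58 and -0.32 ± 0.27 with adjusted p-values of 0.89 and 0.35. Of the 27 immediate early genes, 1 was called higher and 2 lower than in IRI, against 7.18% and 4.4% of all genes.

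Targets of p53 and growth arrest genes followed with 13 of 24 called higher, against 7.97% of all genes, and 1 called lower, against 14.1%. Cdkn1a, the cell cycle inhibitor p21, measured -2.86, -0.89, -2.32 and -1.43 in the Control arrays and 2.71, 2.71, 2.98 and 2.63 in the IPC+IRI arrays. The IPC+IRI arrays lay within a narrow band above all Control arrays, with a rise of 4.63 (SE 0.28, adjusted p = 3.0e-09), or 24.8-fold. Mdm2, the ubiquitin ligase of p53, rose by 1.22 (SE 0.11, adjusted p = 1.0e-07). Trp53 itself fell by 1.17, from 0.38 ± 0.3 to -0.79 ± 0.2 (adjusted p = 5.0e-06), and lay at -0.72 ± 0.15 in the Hemin kidneys.

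Gadd45b, a growth arrest gene induced by stress and NF-kappaB, measured -1.23, -1.88, -2.26 and -1.87 in the Control arrays and 3.22, 2.0, 2.98 and 2.04 in the IPC+IRI arrays. Replicates 1 and 3 were higher than replicates 2 and 4, and all lay above Control, with a rise of 4.37 (SE 0.29, adjusted p = 6.7e-09). The IRI arrays, at 0.5, 1.55, 0.74 and 1.03, lay below every IPC+IRI array, and the difference IPC+IRI minus IRI was 1.61 (SE 0.29, adjusted p = 3.0e-04). In Hemin kidneys it was higher than in Control by 0.92 (SE 0.29, adjusted p = 0.019).

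In the integrated stress response and unfolded protein response, 11 of 25 genes were called higher and 1 lower, against the same shares, with a median log2 fold change of 0.69. Atf4, the factor translated when eIF2 is phosphorylated, rose by 2.09 (SE 0.22, adjusted p = 9.0e-07), its target Ddit3 (CHOP) by 1.77 (SE 0.38, adjusted p = 8.3e-04) and Ppp1r15a, which leads phosphatase to eIF2, by 2.37 (SE 0.24, adjusted p = 5.2e-07). Chac1 measured -1.84, -2.29, -2.49 and -1.93 in the Control arrays and 1.69, 2.16, 1.53 and 1.59 in the IPC+IRI arrays. Its arrays formed separate groups, 3.88 ± 0.31 apart, and those of IRI, at a mean of 3.22 ± 0.46, lay higher still, with a difference IPC+IRI minus IRI of -1.48 (SE 0.31, adjusted p = 9.1e-04). Among chaperones of the endoplasmic reticulum, Hspa5 (BiP) rose by 1.09 (SE 0.21, adjusted p = 2.7e-04). The protein disulfide isomerase Pdia4 fell by 1.07 (adjusted p = 3.8e-04), and its log2 fold change in Hemin vs Control was -1.11 (SE 0.21, adjusted p = 9.0e-04).

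Of 18 heat shock proteins and co-chaperones, 7 were called higher and 1 lower, again against 7.97% and 14.1%. Hspa1a, whose promoter is shown above, measured 1.68, 2.96, 1.61 and 1.5 in the Control arrays and 4.82, 4.06, 3.96 and 3.6 in the IPC+IRI arrays. Control replicate 2 was the highest of its group and still lay below every IPC+IRI array, and the rise was 2.17 (SE 0.34, adjusted p = 3.7e-05). It was larger than in IRI, with a difference IPC+IRI minus IRI of 0.95 (SE 0.33, adjusted p = 0.028). Bag3, the co-chaperone of selective autophagy, rose by 1.76 (SE 0.11, adjusted p = 4.2e-09). Hspb1, a small heat shock protein, rose by 1.72 (SE 0.28, adjusted p = 7.1e-05) and was lower than in IRI, with a difference of -0.88 (SE 0.28, adjusted p = 0.018). Hsf1, the transcription factor of this response, measured 2.65 ± 0.38 in Control, 1.63 ± 0.27 in IPC+IRI and 1.62 ± 0.058 in Hemin, a fall of 1.02 beside a log2 fold change of -1.02 ± 0.17 in Hemin vs Control. Its 3 probes fell by 0.31, 1.27 and 0.04, and with no scaling it was not past the threshold.

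Targets of NRF2 and metallothioneins were called higher in 6 of 19 genes, against 7.97% of all genes, and none was called lower. A further 5 fell past the threshold by less than 2-fold, so that the downward share was below the 32.7% of all genes. Mt2, a metal-binding protein, measured 3.63, 3.69, 3.73 and 2.8 in the Control arrays and 7.42, 7.28, 7.2 and 7.37 in the IPC+IRI arrays. The IPC+IRI arrays lay close together and far above Control, with a rise of 3.86 (SE 0.19, adjusted p = 5.2e-10). Mt1 rose by 3.18 (SE 0.21, adjusted p = 6.7e-09) and Srxn1, which repairs oxidised peroxiredoxins, by 3.2 (SE 0.17, adjusted p = 9.9e-10). Nqo1, a quinone reductase and a standard NRF2 target, had overlapping groups with a log2 fold change of -0.087 ± 0.21 and an adjusted p of 0.75.

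Hmox1, the heme oxygenase, measured 0.96, 2.14, 1.18 and 1.18 in the Control arrays and 2.87, 4.65, 2.99 and 5.32 in the IPC+IRI arrays. Replicates 2 and 4 were well above replicates 1 and 3, and all 4 lay above Control, with a rise of 2.59 (SE 0.46, adjusted p = 1.5e-04), or 6.03-fold. In the IRI arrays it measured 5.69, 5.63, 6.14 and 6.67, above every IPC+IRI array, and IPC+IRI minus IRI was -2.07 (SE 0.46, adjusted p = 0.0016). In the kidneys given Hemin alone it measured 1.93 ± 0.21, with a log2 fold change of 0.56 ± 0.46 over Control and an adjusted p of 0.36.

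Of 18 antioxidant enzymes 2 were called lower, a share below the 14.1% of all genes, and none was called higher. Catalase (Cat) measured 6.17, 5.69, 6.19 and 6.26 in the Control arrays and 4.91, 4.54, 4.33 and 4.73 in the IPC+IRI arrays. All IPC+IRI arrays lay below all Control arrays, with a log2 fold change of -1.45 (SE 0.17, adjusted p = 2.2e-06). The Hemin kidneys lay at 4.76 ± 0.17, so that Hemin vs Control gave -1.32 ± 0.17, and the IRI kidneys, on the scan day of the Control arrays, at 6.07 ± 0.28. Sod3, the extracellular superoxide dismutase, fell from 1.58 ± 0.89 to -1.48 ± 0.14 and lay at -0.78 ± 0.072 in Hemin. The part of slide and scan day in these falls was not tested.

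**Figure D2:**
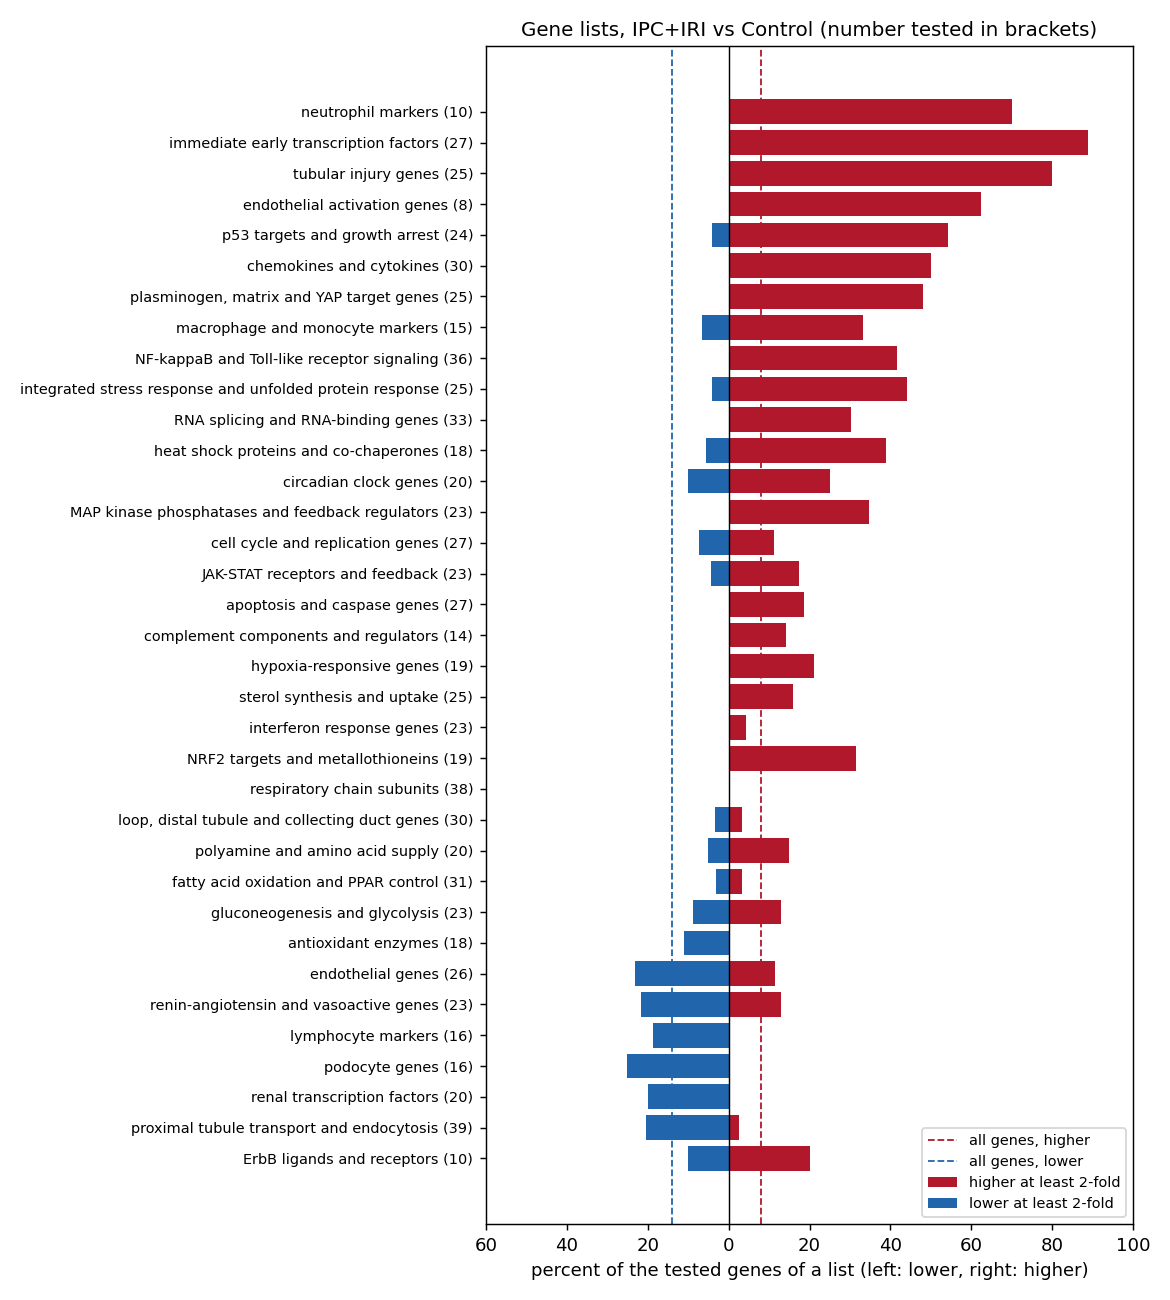
Percent of the tested genes of each of 35 gene lists that were called higher (red, to the right) or lower (blue, to the left) in IPC+IRI vs Control, with the number tested in brackets. Dashed lines mark the 7.97% higher and 14.1% lower over all 18342 genes. Lists are ordered by their median log2 fold change, with immediate early and tubular injury genes reaching the furthest to the right and podocyte, endothelial and proximal tubule genes past the line for lower genes.

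Of 36 chemokines and cytokines on the array 30 were tested, 22 of them well above background on all 8 arrays. Among those tested 15 were called higher and none lower, against 7.97% and 14.1% of all genes, a count that includes genes tested through the IPC+IRI arrays alone, such as Il6 and Cxcl2. Cxcl1, a neutrophil attractant, measured -4.58, -5.65, -2.5 and -4.88 in the Control arrays, with 1 array well above background, and 1.61, 2.34, 2.13 and 2.93 in the IPC+IRI arrays. The groups lay far apart, with a log2 fold change of 6.66 (SE 0.52, adjusted p = 3.6e-08) that was 3.95 with normexp and 7.29 without Control replicate 3. The IRI kidneys lay at 2.25 ± 0.41, and the difference from them was -0.00038 ± 0.52 (adjusted p = 1.0), which does not show that they were alike.

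Il6, the acute phase cytokine, was not well above background on any Control array and measured -1.78, -1.32, -0.99 and -3.75 in the IPC+IRI arrays, at least 6.68-fold higher (adjusted p = 3.8e-07). Replicate 4 was the lowest of them, and with normexp the log2 fold change was 0.85. The neutrophil attractant Cxcl2 was at least 2.1-fold higher (adjusted p = 1.5e-04), and not past the threshold with normexp. Cxcl10, an interferon-induced chemokine, rose by 2.88 (SE 0.5, adjusted p = 1.2e-04) and Il1b by 1.99 (SE 0.5, adjusted p = 0.0027), the arrays of Il1b overlapping between the groups and its rise not past the threshold with normexp (0.72). Ccl2, which attracts monocytes, measured -2.93, -2.61, -3.31 and -2.44 in the Control arrays and -1.48, 1.49, 0.72 and -0.11 in the IPC+IRI arrays, all of the latter higher. Its rise of 2.98 ± 0.45 was smaller than in IRI, with a difference IPC+IRI minus IRI of -1.86 (SE 0.45, adjusted p = 0.0032), and 6 of 30 genes of this list were called lower than in IRI and none higher, against 4.4% and 7.18% of all genes.

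In the NF-kappaB and Toll-like receptor list, whose members carry these signals, 15 of 36 genes were called higher and none lower, against 7.97% and 14.1% of all genes. Nfkbia measured 2.36, 2.94, 2.97 and 2.22 in the Control arrays and 4.7, 4.79, 5.25 and 5.0 in the IPC+IRI arrays, with no overlap and a rise of 2.31 (SE 0.2, adjusted p = 1.0e-07). Bcl3, a nuclear IkappaB protein, rose by 2.96 (SE 0.26, adjusted p = 1.0e-07). Tlr2, a receptor for bacterial lipopeptides and for molecules of damaged tissue, rose by 2.28 (SE 0.29, adjusted p = 6.6e-06) and was higher than in IRI by 0.92 (SE 0.29, adjusted p = 0.017). It was also higher in Hemin vs Control, by 0.95 (SE 0.29, adjusted p = 0.018). In the JAK-STAT list 4 of 23 genes were called higher, against 7.97% of all genes, and 1 lower, below the 14.1% of all genes. The feedback inhibitor Socs3 went from -0.87 ± 0.45 to 4.19 ± 0.39. Stat3 rose by 1.86 (SE 0.19, adjusted p = 7.5e-07) and the oncostatin M receptor Osmr by 2.47 (SE 0.35, adjusted p = 1.8e-05). Of 23 MAP kinase phosphatases and feedback regulators 8 were called higher, against 7.97% of all genes, and Map3k6, a stress kinase, rose by 3.45 (SE 0.27, adjusted p = 3.6e-08).

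Of 10 ErbB ligands and receptors tested, 2 were called higher and 1 lower, against 7.97% and 14.1% of all genes. Without a fold cutoff 3 passed the threshold upward and 5 downward, against 23.3% and 32.7% of all genes. Hbegf, a ligand of the EGF receptor that is shed after injury, measured 0.85, 0.71, 1.95 and 0.59 in the Control arrays and 4.91, 3.84, 4.58 and 3.14 in the IPC+IRI arrays. No arrays overlapped, and the rise was 3.1 (SE 0.43, adjusted p = 1.3e-05). Nrg1, a ligand of ErbB3 and ErbB4, rose by 2.37 (SE 0.19, adjusted p = 5.2e-08). Egf, made by the distal tubule, fell by 0.91 from 7.0 ± 0.14 to 6.09 ± 0.1 (adjusted p = 5.5e-06) and was at 6.98 ± 0.2 in IRI and 6.46 ± 0.11 in Hemin. With no scaling the fall of Egf was not past the threshold.

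Of 15 neutrophil markers on the array 5 were too dim to be tested. Among the 10 tested 7 were called higher and none lower, against 7.97% and 14.1% of all genes. As 2 of the 10 were well above background on all 8 arrays, members entered the test through the IPC+IRI arrays in which they were high. Retnlg, a neutrophil granule protein, was not well above background on any Control array and measured -2.72, -0.83, -0.61 and -1.78 in the IPC+IRI arrays, at least 9.27-fold higher (adjusted p = 5.4e-07). With normexp the log2 fold change was 1.14. S100a8, a subunit of calprotectin, measured -5.21, -4.55, -3.44 and -4.01 in the Control arrays, 2 of them well above background, and -0.81, 0.98, 1.16 and -0.38 in the IPC+IRI arrays, all above Control, with a log2 fold change of 4.54 (SE 0.66, adjusted p = 2.1e-05) that was 1.86 with normexp. Its partner S100a9 went from -1.72 ± 0.65 to 3.23 ± 0.79. Replicates 2 and 3 were the highest IPC+IRI arrays in all of Retnlg, S100a8 and S100a9, and replicate 1 the lowest. The summed level of the list ranged from -0.88 to -0.14 in the Control arrays and from 2.75 to 4.38 in the IPC+IRI arrays.

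Several macrophage and monocyte markers rose over Control, and several lay above their IRI level. Of 15 tested, 5 were called higher and 1 lower than in Control, against 7.97% and 14.1% of all genes, while of 14 tested against IRI 7 were called higher and none lower, against 7.18% and 4.4% of all genes, with a median difference of 1.06 against 0.093 over all genes. Lyz2, lysozyme of myeloid cells, measured 1.2, 1.88, 0.76 and 0.88 in the Control arrays, 1.38, 1.4, 0.63 and 0.75 in the IRI arrays and 2.09, 3.8, 4.16 and 2.81 in the IPC+IRI arrays. All IPC+IRI arrays lay above all others, with a rise of 2.04 (SE 0.38, adjusted p = 2.1e-04) over Control and a difference IPC+IRI minus IRI of 2.18 (SE 0.38, adjusted p = 2.2e-04). Adgre1, a surface antigen of mature macrophages, measured -2.69, -0.75, -0.37 and -1.78 in the IPC+IRI arrays and -2.08, -1.51, -2.68 and -2.58 in the Control arrays, which overlapped. It was 0.82 ± 0.44 against Control, short of the threshold with an adjusted p of 0.12, and 1.67 (SE 0.44, adjusted p = 0.0051) against IRI. Without IPC+IRI replicate 1, the lowest in Adgre1 and Lyz2, the log2 fold change of Adgre1 against Control was 1.25 with an adjusted p of 0.014. Cd68, a lysosomal protein of phagocytes, went the other way and was lower than in IRI, with a difference of -0.82 (SE 0.31, adjusted p = 0.042), although it rose over Control by 1.41 (SE 0.32, adjusted p = 0.0011). The summed level of the list overlapped between the groups, at 3.61 to 4.06 in the Control arrays and 3.83 to 5.73 in the IPC+IRI arrays.

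Of 16 lymphocyte markers 7 passed the threshold downward, against 32.7% of all genes, and 9 did not pass it, while 23.3% of all genes passed it upward. A fall of at least 2-fold was called in 3, against 14.1% of all genes, and 10 of the 16 were well above background on all 8 arrays. The B cell receptor gene Cd79a measured -3.99, -3.67, -4.01 and -4.32 in the Control arrays. It was not well above background on any IPC+IRI array and was at least 2.18-fold lower (adjusted p = 5.8e-04). It was also lower in Hemin vs Control, with a log2 fold change of -1.49 (SE 0.42, adjusted p = 0.011).

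Of 26 endothelial genes 3 were called higher and 6 lower, against 7.97% and 14.1% of all genes, while 5 of 8 endothelial activation genes were called higher and none lower. Sox18, a transcription factor of developing vessels, measured 0.23, -0.33, 0.045 and 0.78 in the Control arrays and -4.94, -2.84, -3.89 and -2.99 in the IPC+IRI arrays. It was the largest fall among genes well above background on all 8 arrays, with -3.85 (SE 0.45, adjusted p = 2.5e-06) and no overlap, and it was lower than in IRI, with a difference of -2.75 (SE 0.45, adjusted p = 1.3e-04). Aplnr, the apelin receptor, measured -1.8, -1.99, -1.7 and -1.41 in the Control arrays and -3.85, -4.26, -3.48 and -3.88 in the IPC+IRI arrays, all of them lower. Its log2 fold change of -2.14 (SE 0.21, adjusted p = 4.8e-07) stood beside -2.02 ± 0.21 in IRI vs Control and 0.04 ± 0.21 in Hemin vs Control. Icam1, the leukocyte adhesion molecule, rose by 2.04 (SE 0.19, adjusted p = 3.1e-07), and Nos3, the endothelial nitric oxide synthase, by 1.42 (SE 0.21, adjusted p = 2.1e-05).

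The junction genes Cdh5 and Pecam1 were lower than in IRI past the threshold, and their differences from Control did not pass it. Cdh5, VE-cadherin, measured -0.21, -0.36, -0.12 and 0.31 in the Control arrays, 1.43, 1.1, 1.47 and 1.19 in the IRI arrays and -1.08, 0.27, -0.23 and 0.069 in the IPC+IRI arrays. All IPC+IRI arrays lay below all IRI arrays, with a difference of -1.54 (SE 0.27, adjusted p = 2.7e-04), and overlapped with Control (-0.15 ± 0.27, adjusted p = 0.67). Pecam1 was -1.16 (SE 0.34, adjusted p = 0.011) against IRI and -0.52 ± 0.34 against Control (adjusted p = 0.2), which became -0.82 with an adjusted p of 0.047 without IPC+IRI replicate 2. Over the list, 7 of 26 genes were called lower than in IRI and none higher, against 4.4% and 7.18% of all genes. F3, tissue factor, which starts coagulation, rose by 1.9 (SE 0.22, adjusted p = 1.9e-06) and was lower than in IRI, with a difference of -1.47 (SE 0.21, adjusted p = 5.5e-05).

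**Figure D3:**
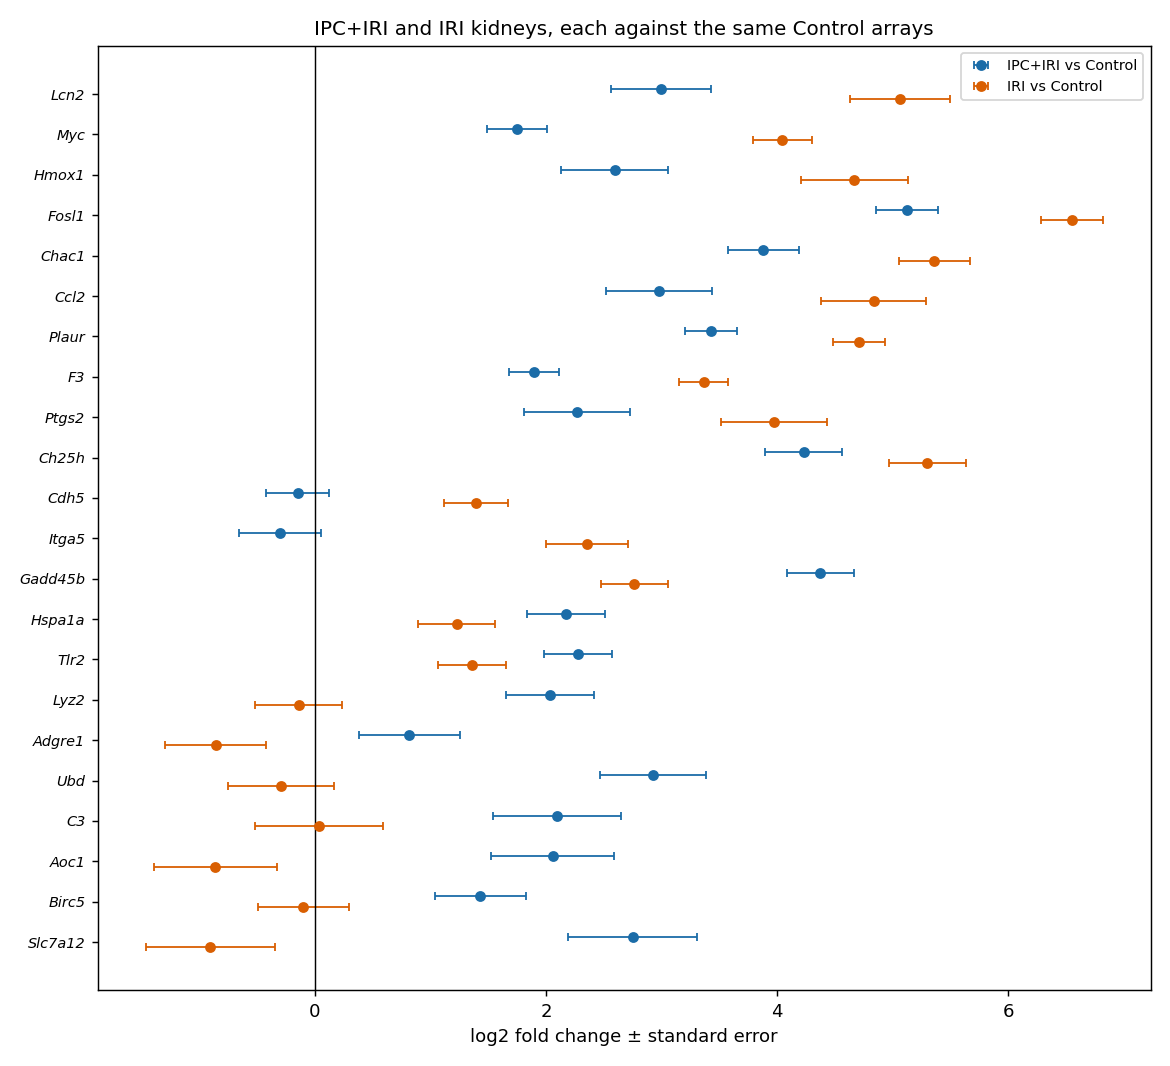
Log2 fold changes (points) with standard errors (bars) of 22 genes in IPC+IRI vs Control (blue) and IRI vs Control (orange), both against the same 4 Control arrays, so that they are not independent of each other. Lcn2, Myc and Hmox1 lie further right in IRI, Gadd45b and Hspa1a further right in IPC+IRI, and Lyz2, Ubd, C3 and Slc7a12 lie to the right in IPC+IRI alone.

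Of 16 podocyte genes 4 were called lower, against 14.1% of all genes, and none higher. Tcf21, a transcription factor of podocytes and stroma, measured 0.24, -0.61, 0.036 and 0.0038 in the Control arrays and -3.25, -1.43, -1.51 and -0.95 in the IPC+IRI arrays. The groups did not overlap, replicate 1 was the lowest, and it fell by 1.70 on the log2 scale (adjusted p = 0.0016). Nphs1, nephrin, overlapped between the groups at -0.74 ± 0.21 and -1.01 ± 0.16, with a log2 fold change of -0.26 ± 0.14 and an adjusted p of 0.12.

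Of 39 transport genes of the proximal tubule 21 passed the threshold downward, against 32.7% of all genes, and 2 upward, against 23.3%. At 2-fold 8 were called lower, against 14.1% of all genes, and 1 higher. The median log2 fold change was -0.53. Slc13a2, the apical citrate carrier, measured -1.55, -1.82, -1.7 and -1.89 in the Control arrays and -3.37, -4.3, -3.68 and -3.63 in the IPC+IRI arrays. All arrays of one group lay below all of the other, and the log2 fold change was -2.0 (SE 0.32, adjusted p = 4.5e-05), beside -2.05 ± 0.31 in IRI and -0.44 ± 0.32 in Hemin. Lrp2, megalin of the endocytic apparatus, fell by 0.71 (adjusted p = 1.5e-05), not past the threshold in the deposited log2 matrix and with no scaling, with -0.95 ± 0.1 in IRI vs Control and 0.073 ± 0.1 in Hemin vs Control. Slc34a1 fell by 0.74 (adjusted p = 2.0e-04), but not past the threshold with no scaling.

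Slc22a8, the organic anion transporter OAT3, measured 2.85, 2.41, 3.51 and 3.28 in the Control arrays and 1.7, 1.29, 1.11 and 1.11 in the IPC+IRI arrays. Every IPC+IRI array lay below every Control array, and the log2 fold change was -1.71 (SE 0.2, adjusted p = 2.7e-06), similar over its 3 probes. It stood beside -0.084 ± 0.2 in IRI vs Control and -1.59 (SE 0.2, adjusted p = 6.3e-05) in Hemin vs Control, whose kidneys were uninjured and scanned on the same day as IPC+IRI. Slc7a12, an amino acid carrier, was the list's called rise, at -1.16, 0.11, -0.69 and 0.65 in the Control arrays and 2.8, 1.0, 2.78 and 3.33 in the IPC+IRI arrays, with 2.75 (SE 0.56, adjusted p = 4.7e-04) against Control and 1.52 (SE 0.56, adjusted p = 0.041) in Hemin vs Control.

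Of 30 genes of the loop, distal tubule and collecting duct, 7 passed the threshold upward, the share of all genes (23.3%), and 7 downward, below that of all genes (32.7%). At 2-fold 1 was called in each direction, below the 7.97% higher and 14.1% lower of all genes. Aqp2 rose by 0.97 (SE 0.3, adjusted p = 0.012), short of 2-fold and not past the threshold with quantile normalization, and Hsd11b2, which inactivates glucocorticoids in mineralocorticoid target cells, fell by 1.35 (adjusted p = 3.1e-04), beside -1.0 ± 0.26 in Hemin. Among 20 renal transcription factors 9 passed the threshold downward, 4 were called lower (against 32.7% and 14.1% of all genes) and none passed it upward. Hnf4g measured -3.39, -3.57, -3.38 and -3.61 in the Control arrays and -4.52, -5.31, -4.75 and -4.58 in the IPC+IRI arrays, all lower, and Maf fell by 1.17 (adjusted p = 9.7e-05).

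In fatty acid oxidation 1 of 31 genes was called in each direction, and none of 38 respiratory chain subunits was called, both below the 7.97% higher and 14.1% lower of all genes. Pdk4, the kinase that turns off pyruvate dehydrogenase, measured 1.7, 2.27, 0.6 and 1.03 in the Control arrays and 3.96, 4.97, 4.26 and 5.24 in the IPC+IRI arrays. The groups were far apart, with a rise of 3.21 (SE 0.31, adjusted p = 3.9e-07). Acadm, of medium-chain fatty acid oxidation, overlapped, with -0.092 ± 0.16 and an adjusted p of 0.64, and Cpt1a, the gate of mitochondrial fatty acid import, fell by 0.52 (adjusted p = 0.0086) with overlapping arrays. Cpt1a was not past the threshold with normexp, with no scaling and in a fit on the 8 arrays alone. In gluconeogenesis and glycolysis 3 of 23 genes were called higher, against 7.97% of all genes, and 2 lower, below the 14.1% of all genes. Hk2, hexokinase 2, measured -2.55, -0.2, -4.7 and -4.42 in the Control arrays and -0.94, 0.49, 0.19 and -0.81 in the IPC+IRI arrays. The groups overlapped through Control replicate 2, and the rise was 2.7 (SE 0.77, adjusted p = 0.0064). It was 3.62 (adjusted p = 1.2e-04) without that array and 1.25 with normexp. Pfkfb3, which drives glycolysis, rose by 1.29 (SE 0.26, adjusted p = 4.8e-04), while G6pc, the last enzyme of gluconeogenesis, fell by 1.13 (adjusted p = 0.0039), but not past the threshold with no scaling and -0.97 without Control replicate 2.

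Of 19 hypoxia-responsive genes 4 were called higher, against 7.97% of all genes, and none lower. Hilpda, a lipid droplet protein induced by hypoxia, measured -1.68, -1.56, -2.05 and -1.66 in the Control arrays and 0.44, 1.1, 0.9 and 0.69 in the IPC+IRI arrays, all above Control, with a rise of 2.52 (SE 0.19, adjusted p = 3.3e-08). Adrenomedullin (Adm), a vasodilator peptide, rose by 1.55 (SE 0.14, adjusted p = 1.6e-07). Vegfa, the vascular growth factor, fell by 0.85 from 2.55 ± 0.06 to 1.69 ± 0.36 (adjusted p = 1.0e-04). Of its 4 probes 1 fell by 1.51 and the others were at -0.27, -0.10 and 0.09, and the fall was not past the threshold in the deposited log2 matrix and with no scaling.

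Genes of the plasminogen system, the matrix and YAP targets were called higher in 12 of 25, against 7.97% of all genes, with none called lower. Plaur, the urokinase receptor, measured -1.39, -1.81, -1.44 and -1.64 in the Control arrays and 1.2, 2.35, 1.8 and 2.08 in the IPC+IRI arrays. The groups did not overlap, and the rise of 3.43 (SE 0.23, adjusted p = 6.7e-09) was smaller than in IRI, with a difference IPC+IRI minus IRI of -1.28 (SE 0.23, adjusted p = 2.6e-04). Sphk1, sphingosine kinase 1, rose by 4.22 (SE 0.22, adjusted p = 7.3e-10), Epha2, an ephrin receptor, by 3.95 (SE 0.29, adjusted p = 2.0e-08) and Cyr61, a matricellular YAP target, by 2.13 (SE 0.46, adjusted p = 7.8e-04).

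Of 23 vasoactive genes 5 were called lower and 3 higher, against 14.1% and 7.97% of all genes. Npr1, the receptor of atrial natriuretic peptide, measured -2.71, -3.96, -2.22 and -2.06 in the Control arrays and was not well above background on any IPC+IRI array, so that it was at least 5.39-fold lower (adjusted p = 1.9e-06), and with normexp the log2 fold change was -0.90. The angiotensin receptor Agtr1b fell by 2.44 (adjusted p = 1.2e-04), beside -3.07 ± 0.42 in IRI vs Control. Ace, which makes angiotensin II, measured 0.97, -0.029, 1.29 and 0.88 in the Control arrays and -0.83, -1.01, -0.77 and -1.09 in the IPC+IRI arrays, all lower, with -1.7 (SE 0.24, adjusted p = 1.7e-05). For Npr1 and Ace the Hemin kidneys were lower than Control as well, with log2 fold changes of -1.78 ± 0.39 and -1.4 ± 0.24. Ptgs2, cyclooxygenase 2, was not well above background on any Control array and was at least 1.25-fold higher (adjusted p = 4.7e-04), not past the threshold with normexp, and it was lower than in IRI, with a difference of -1.7 (SE 0.46, adjusted p = 0.0062).

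Among the remaining lists, 2 of 14 complement genes, 1 of 23 interferon response genes, 5 of 27 apoptosis genes and 4 of 25 sterol genes were called higher, and none of them lower. Over all genes 7.97% were called higher, so that the interferon response genes lay below this share. C3, the central complement component, measured 0.34, 1.79, -0.12 and -0.082 in the Control arrays, 1.54, 0.26, 0.1 and 0.18 in the IRI arrays and 1.4, 2.33, 4.67 and 1.91 in the IPC+IRI arrays. Replicate 3 was the highest, Control replicate 2 overlapped with the IPC+IRI arrays, and the rise was 2.1 (SE 0.55, adjusted p = 0.0037) over Control and 2.06 (SE 0.55, adjusted p = 0.0059) over IRI. Without replicate 3 the rise over Control was 1.40 (adjusted p = 0.01). Averaged as log2 values over its probes, of which 1 was close to background, the log2 fold change of C3 was 0.81 with an adjusted p of 0.16. In the polyamine and amino acid list 3 of 20 genes were called higher and 1 lower, the latter below the 14.1% of all genes, and Gatm, which makes the creatine precursor in the kidney, fell by 1.55 (adjusted p = 2.1e-05), beside -1.3 ± 0.23 in Hemin. Among circadian genes 5 of 20 were called higher, against 7.97% of all genes, and 2 lower, below the 14.1% of all genes. The repressor Nfil3 rose by 2.86 (SE 0.35, adjusted p = 3.9e-06) and Per1 by 1.82 (SE 0.41, adjusted p = 0.0012), while Per3 fell by 1.71 (adjusted p = 5.7e-04).

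Of 27 cell cycle and replication genes 3 were called higher than in Control and 2 lower, against 7.97% and 14.1% of all genes, and 6 were called higher than in IRI and none lower, against 7.18% and 4.4%. Birc5, survivin, a gene of mitosis, measured -0.89, -1.7, -1.01 and -1.52 in the Control arrays, -1.3, -1.03, -1.26 and -1.93 in the IRI arrays and 1.24, -0.44, 0.58 and -0.77 in the IPC+IRI arrays. Replicates 1 and 3 were the highest, no array overlapped with the others, and the rise was 1.43 (SE 0.39, adjusted p = 0.0048) over Control and 1.53 (SE 0.39, adjusted p = 0.0043) over IRI. Pcna, the replication clamp, rose by 0.92 (SE 0.12, adjusted p = 7.0e-06) and was higher than in IRI by 0.47 (SE 0.12, adjusted p = 0.0044). In RNA splicing and RNA-binding genes 10 of 33 were called higher, against 7.97% of all genes, and none lower, among them the cold-inducible RNA-binding protein Cirbp, at 1.68 (SE 0.17, adjusted p = 6.3e-07).

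The 10 largest rises among genes well above background on all 8 arrays and without overlap were, beside Atf3, Maff, Socs3, Cdkn1a, Gadd45b and S100a9, Tnfrsf12a, Ch25h and the provisional names LOC100047599 and NAP066348-1. Tnfrsf12a, the TWEAK receptor, measured 0.091, 0.92, -0.051 and -0.069 in the Control arrays and 4.83, 5.27, 5.25 and 5.37 in the IPC+IRI arrays, all above Control, and it was higher in Hemin vs Control by 0.79 (SE 0.24, adjusted p = 0.017). Ch25h, which makes 25-hydroxycholesterol, rose by 4.23 (SE 0.33, adjusted p = 3.6e-08) and was lower than in IRI, with a difference of -1.07 (SE 0.33, adjusted p = 0.014). LOC100047599, a locus with 2 probes, measured 3.01, 5.13, 4.97 and 5.26 in the IPC+IRI arrays and -0.21, 1.19, 0.25 and -0.081 in the Control arrays. NAP066348-1 measured 3.08, 5.33, 5.21 and 5.46 and 0.14, 1.34, 0.47 and -0.013. In both, IPC+IRI replicate 1 lay below the other IPC+IRI arrays and above all Control arrays. The values of these names ran closely together over the 8 arrays, and whether they are separate transcripts was not tested.

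The 10 largest falls of the same kind held few genes of known function. Beside Sox18 and Sod3 they were Slc4a7, a bicarbonate carrier, Kcns2, a silent potassium channel subunit, and the transcripts AK053467, AK079518, 5730522E02Rik, D630023F18Rik, NAP050776-1 and E330037G11Rik. Slc4a7 measured 3.99, 1.19, 4.05 and 3.89 in the Control arrays and -0.058, 0.015, -0.24 and 0.23 in the IPC+IRI arrays, with Control replicate 2 lying between the other Control arrays and the IPC+IRI arrays. The fall of 3.29 rested on 1 of its 3 probes, which fell by 5.02, while the others rose by 1.90 and 0.92, and Hemin vs Control gave -3.73 ± 0.5. Without Control replicate 2 its log2 fold change was -3.99. In the deposited log2 matrix the fall of Slc4a7 was no longer past the threshold. Kcns2 fell by 2.93, beside -2.5 ± 0.44 in IRI vs Control and -2.32 ± 0.44 in Hemin vs Control. The others fell by 2.54 to 2.87, and their log2 fold changes in Hemin vs Control were -1.48 for AK053467, -0.95 for AK079518, -1.09 for 5730522E02Rik, -0.54 for D630023F18Rik, -1.83 for NAP050776-1 and 1.0 for E330037G11Rik.

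**Figure D4:**
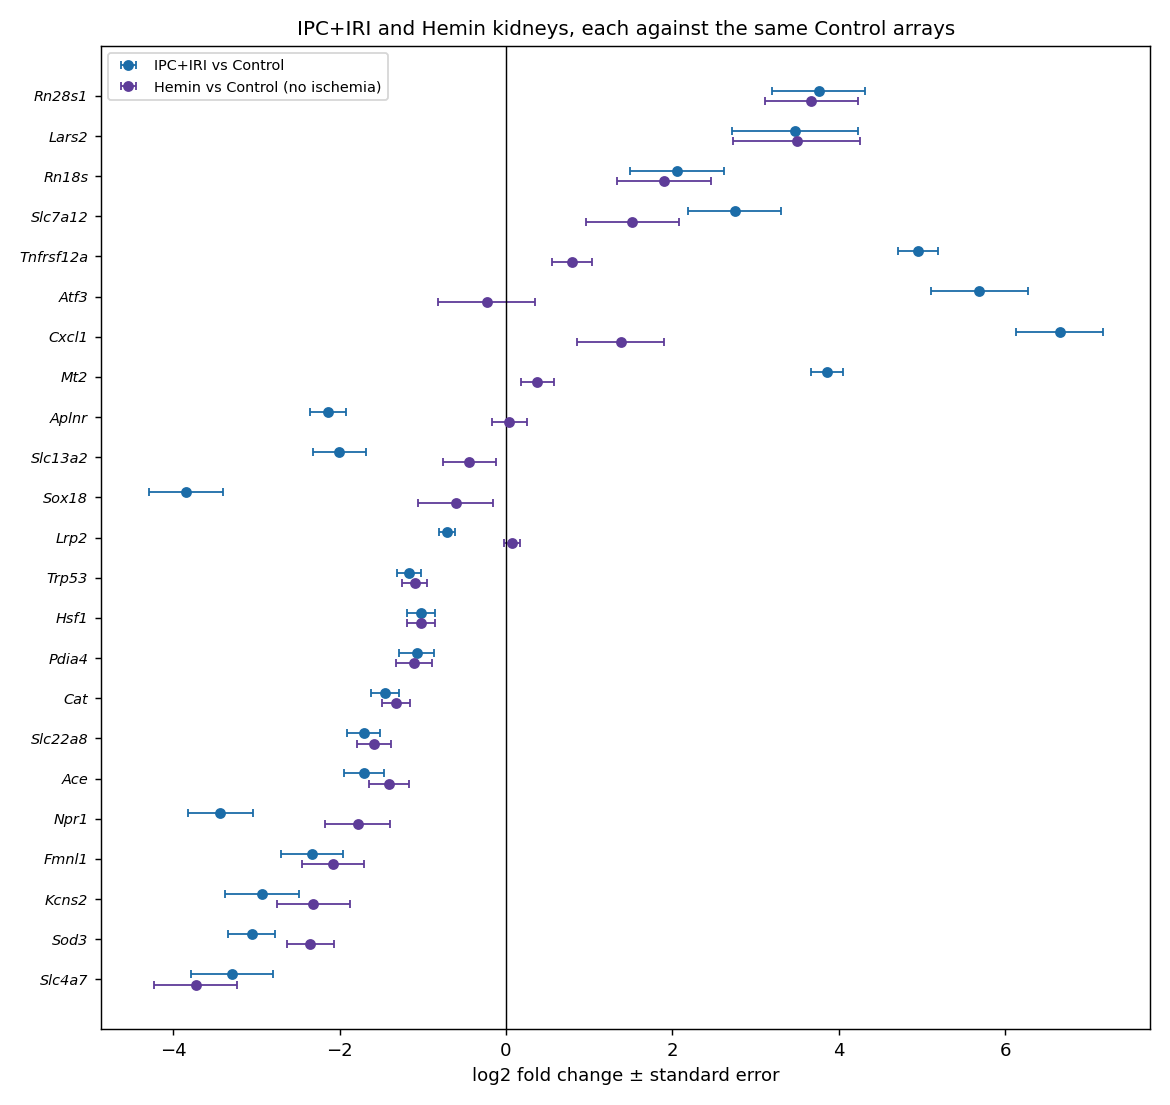
Log2 fold changes (points) with standard errors (bars) of 23 genes in IPC+IRI vs Control (blue) and Hemin vs Control (purple), both against the same 4 Control arrays. Hemin kidneys had no ischemia and shared the scan day of the IPC+IRI kidneys. Rn28s1, Lars2, Trp53, Hsf1, Cat, Slc22a8 and Slc4a7 lie together in both comparisons, while Atf3, Cxcl1, Mt2, Aplnr and Slc13a2 lie further from 0 in IPC+IRI than in Hemin.

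The largest differences between IPC+IRI and IRI were of mixed kinds, and the part of slide and scan day in them was not tested. Ubd, a ubiquitin-like modifier induced by interferon gamma and tumor necrosis factor, measured -4.44, -2.83, -3.57 and -3.88 in the Control arrays, -3.85, -4.13, -3.93 and -4.0 in the IRI arrays and -1.76, -0.98, 1.21 and -1.49 in the IPC+IRI arrays. All IPC+IRI arrays lay above all others, with replicate 3 highest, and IPC+IRI minus IRI was 3.22 (SE 0.46, adjusted p = 4.3e-05), beside -0.13 ± 0.46 in Hemin vs Control. The rise of Ubd over Control was 2.93, and 2.27 without replicate 3. Aoc1, diamine oxidase, named Abp1 on the array, differed from IRI by 2.92 (SE 0.53, adjusted p = 3.4e-04). It measured 0.96, -0.22, 3.38 and 0.29 in the IPC+IRI arrays, replicate 3 being far the highest, and its log2 fold change against Control was 2.06, or 1.30 without that array. In Hemin vs Control Aoc1 was at 1.32 (SE 0.53, adjusted p = 0.061). The transcript 9130221J18Rik differed from IRI by 2.91 (SE 0.33, adjusted p = 7.9e-06), beside 0.89 (SE 0.33, adjusted p = 0.043) in Hemin vs Control. Slc7a12 differed from IRI by 3.65 (SE 0.56, adjusted p = 7.6e-05). Itga5, the fibronectin receptor subunit, rose in IRI vs Control by 2.36 ± 0.35 and lay at -3.04 ± 0.58 in IPC+IRI against -2.74 ± 0.75 in Control. Its difference IPC+IRI minus IRI was -2.66 (SE 0.35, adjusted p = 2.5e-05), and Hemin vs Control gave -1.25 (SE 0.35, adjusted p = 0.011). Fmnl1, a formin of blood cells, fell against IRI by 3.17 (adjusted p = 9.6e-06), and so did Slc4a7 by 3.64 and Sod3 by 3.47, and in Hemin vs Control the 3 genes were at -2.08, -3.73 and -2.35.

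Lars2, the mitochondrial leucyl-tRNA synthetase, had a difference IPC+IRI minus IRI of 4.83 (SE 0.76, adjusted p = 1.0e-04), and it is described with the probes of ribosomal RNA, Rn28s1 and Rn18s. Lars2 measured 4.01, 8.98, 3.97 and 3.95 in the Control arrays and 9.05, 8.49, 8.64 and 8.63 in the IPC+IRI arrays. Control replicate 2 lay among the IPC+IRI arrays and the other 3 far below. The probe of Rn28s1 measured -3.64, -0.46, -3.98 and -3.8 in the Control arrays and 0.51, 0.75, 0.89 and 1.01 in the IPC+IRI arrays. Hemin kidneys lay at 8.72 ± 0.052 for Lars2, 0.7 ± 0.32 for Rn28s1 and 7.49 ± 0.09 for Rn18s, beside 8.7 ± 0.24, 0.79 ± 0.21 and 7.65 ± 0.28 in IPC+IRI. In the deposited log2 matrix the rise of Rn18s was not past the threshold. Without Control replicate 2 the log2 fold changes in IPC+IRI vs Control were 4.73 for Lars2, 4.60 for Rn28s1 and 2.77 for Rn18s. The part of labelling, slide or scan day in these signals was not tested.

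Over all genes called lower in IPC+IRI vs Control, 63.4% were well above background on all 8 arrays, against 85.6% of all genes tested, and 337 were well above it on no IPC+IRI array. Over the genes called higher the share was 68.8%, and 265 were well above background on no Control array. Falls of dim genes such as Cd79a, Hnf4g and Per3 were not past the threshold with normexp, with log2 fold changes of -0.47, -0.43 and -0.63, while those of Aplnr (-0.94), Slc13a2 (-0.83) and Sox18 (-2.21) stayed past the threshold. Smaller sizes with normexp were also seen for called rises, among them Ccl2 (1.72), Tlr2 (1.27), Nrg1 (1.19), Ubd (1.32) and Ch25h (2.71), and for the falls of Kcns2 (-1.10) and Agtr1b (-1.17), all of them past the threshold.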

How the data were processed

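Total RNA of each kidney was labelled with Cy3 and hybridised to an Agilent whole-genome mouse array. The authors deposited the scanner output, in which Agilent Feature Extraction 9.5.3.1 gives each spot's intensity after background subtraction and spatial correction, with no step between arrays. A deposited matrix holds log2 values of the same signal. For 33598 probes with a single spot, 100% of its values lay within 0.001 of the log2 scanner signal, and 18.1% were blank.

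Control spots were left out, leaving 43379 spots, and of these the flagged outliers of each array were removed. Replicate spots were combined as their mean. The 75th percentile of an array (147 to 221 in Control, 222 to 304 in IPC+IRI) served as its scale, and probes sharing a gene name were combined as their mean before taking log2 (41174 probes, 27827 names). Per the file headers, probe coordinates are on mm9. A gene was tested with at most 1 value missing of 8 and with 3 of 4 arrays of either group well above background. In limma 3.58.1 (R 4.3.3), 5 group means were fitted on 20 arrays leaving 15 residual degrees of freedom, with Benjamini-Hochberg adjustment over all genes of a comparison. In simulated data with 200 changed genes, this recovered 65% of those changed 2-fold and 99% of those changed 4-fold.

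Gene lists (879 of 888 genes on the array, in 35 lists and 8 marker lists), named genes and motifs were chosen with earlier results of these data known. Named genes were fixed for each list, together with the 2 largest called rises and falls of each list without overlap, the 10 largest of each direction without overlap and well above background on 8 arrays, and the 5 largest differences from IRI of each direction. The summed level of a list is the log2 of the sum of its genes' scaled signals. Alternatives were other background correction, scaling, probe summaries, filters and samples. The number of arrays limits the precision, and p-values measure the spread between these arrays. Gene names are those of the array, updated through their accession to RefSeq. Some items are not reported here.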

Additional observations from a re-analysis of the deposited data

Results flagged for a closer look

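Among the levels of the named genes in the Control and IPC+IRI groups, 242 sets of 4 arrays were examined for an array far from the other 3, and 12 had one. Chance gives about 1 in 20 such sets. In Control replicate 2, Hspa1a was high at 2.96 (nearest array 1.68), Tnfrsf12a high at 0.92 (0.09), Lars2 high at 8.98 (4.01), Rn28s1 high at -0.46 (-3.64), Cat low at 5.69 (6.17) and Slc4a7 low at 1.19 (3.89). In all 6 genes this array lay on the side of the IPC+IRI arrays, and for Lars2 within their range. In Control replicate 4, Mt2 was low at 2.80 (3.63) and Il1b high at -2.63 (-3.66).

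In IPC+IRI replicate 1, Socs3 was low at 3.62 (4.30), Nrg1 at -0.87 (-0.44), LOC100047599 at 3.01 (4.97) and NAP066348-1 at 3.08 (5.21).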

How the results depend on the processing

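Of 112 named genes past the threshold in IPC+IRI vs Control, 94 stayed past it with the same sign under every alternative that gave a value. The 1461 higher and 2584 lower genes became 573 and 325 with normexp and 3267 and 1187 with no scaling. Without a fold cutoff they were 4265 and 6007, with a 4-fold cutoff 373 were higher, and with the filter that all 8 arrays be well above background 1640 were lower. With any single array left out, the numbers ran from 1368 to 1717 higher and from 2427 to 2674 lower. The 200 list members called higher ranged from 190 to 219, and the 47 called lower from 42 to 54, with 20 under normexp and 19 with no scaling. Of the named genes, 55 differed from IRI past the threshold, and 46 to 57 with 1 array left out. Over all genes tested against IRI, 26.3% passed it upward and 17.9% downward, and some named genes were chosen by their difference from IRI. These list and IRI alternatives were chosen after seeing the data.

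Signs turned only in genes short of the threshold. With no scaling, which moved the median of all genes from -0.086 to 0.35, Acadm was at 0.35, Cdh5 at 0.29, Itga5 at 0.13, Nphs1 at 0.17 and Nqo1 at 0.35. A 75th percentile over the brighter probes only gave -0.031 for Clu and -0.027 for Umod, and quantile normalization gave -0.13 and -0.14. With single arrays left out, Acadm ran from -0.18 to 0.0073, Cdh5 from -0.32 to 0.13, Clu from -0.089 to 0.20, Nqo1 from -0.26 to 0.055 and Umod from -0.019 to 0.14. No named gene that had passed the threshold failed it when a single array was left out. Genes that came past the threshold were Umod (0.52) and Adgre1 (1.26) with no scaling and Nphs1 (-0.37) with a 75th percentile over the brighter probes. With a single array left out they were Adgre1 without IPC+IRI replicate 1 and Pecam1 without IPC+IRI replicate 2. Genes no longer past the threshold were 7 with normexp (Cd79a, Cpt1a, Cxcl2, Hnf4g, Il1b, Per3 and Ptgs2), 7 with no scaling (Cpt1a, Egf, G6pc, Hsf1, Lrp2, Slc34a1 and Vegfa) and 5 in the deposited log2 matrix (Havcr1, Lrp2, Rn18s, Slc4a7 and Vegfa). Havcr1 was not past it with the brightest probe, C3 with the mean of log2 values, Aqp2 with quantile normalization and Cpt1a with the 8 arrays alone. Of 104 named genes that were also at least 2-fold, 85 were still called with normexp and 97 with no scaling, and in 47 normexp moved the value by over 1.5-fold, always toward 0. With 1 array left out 102 to 104 were called. Those under 2-fold were G6pc without Control replicate 2 or IPC+IRI replicate 3 (-0.97 and -0.89), Havcr1 without IPC+IRI replicate 3, Hspa5 without Control replicate 1 (0.94), Pdia4 without Control replicate 4 (-0.99) and Hsf1 without Control replicate 1 or 3 or IPC+IRI replicate 2 or 4 (-0.96 to -0.88).

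With the replicate block, 1456 genes were higher and 2577 lower, and no named gene crossed the threshold. Same-numbered arrays did not deviate together (correlations of -0.087, -0.025, 0.00015 and -0.040), so the numbers do not pair samples. Slide and scan day as blocks could not be fitted and were not run. Signal over background limits the changes of dim genes. Of the genes called lower 337 were well above background on no IPC+IRI array, and of those called higher 265 on no Control array.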
